A study of Mus musculus with 3 samples.

Results

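Trh encodes the precursor of thyrotropin-releasing hormone (TRH), and its transcript was measured on Illumina mouse bead arrays in 3 pluripotent cell lines, with 1 array per line. The gene was taken by its symbol in the probe table of the platform, which gave 1 probe among 25697, and Trh is 1 of 16593 genes with a named probe. The gene was chosen by its measured signal, which was high in epiblast stem cells (EpiSC) against embryonic stem cells (ESC), so its levels below are a description and carry no test. E3 (hybrid background) and T9 (129 background) are EpiSC lines, which resemble the epiblast of the embryo after implantation. They were cultured in KSR medium with FGF2 at 5 ng/ml on growth-arrested CF1 fibroblasts and collected with collagenase IV, with few feeder cells carried over per the labels. OG2 (hybrid background) is an ESC line, which resembles the epiblast before implantation. It was cultured without feeders on gelatin in KSR medium with the MEK inhibitor PD0325901 at 1 uM, the GSK3 inhibitor CHIR99021 at 3 uM and LIF at 1000 U, and collected on the dish. None of the 3 lines received any further treatment. Cell type, medium, feeder layer and way of collection therefore changed together and cannot be told apart.

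TRH is a tripeptide hormone best known from the hypothalamus, where it is released towards the pituitary and drives the secretion of thyrotropin and prolactin. Its precursor holds several copies of the TRH sequence, each set between pairs of basic residues. Prohormone convertases cut the precursor there, carboxypeptidase E removes the basic residues, glutaminyl cyclase closes the first residue into a ring, and an amidating enzyme finishes the other end. Thyroid hormone acts back on the hypothalamus and lowers transcription of the gene.

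The stretch just upstream of the gene is shown because it holds the element through which CREB and thyroid hormone receptors are known to act on the human gene, called Site 4. It covers the 250 bases before the RefSeq transcription start on the minus strand of GRCm38.p6, chr6:92244651-92244900, and is written from 5′ to 3′ with the letters of Site 4 (TGACCTCA) in capitals.
Trh upstream region: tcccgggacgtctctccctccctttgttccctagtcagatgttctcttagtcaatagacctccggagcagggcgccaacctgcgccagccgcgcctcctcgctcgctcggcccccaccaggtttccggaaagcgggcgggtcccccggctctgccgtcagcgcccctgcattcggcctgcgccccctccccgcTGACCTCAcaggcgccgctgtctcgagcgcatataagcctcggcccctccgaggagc
The first base of this match lies 57 bases before the start, in a region with a G and C content of 68.8%. On either strand, the same letters occurred in 1.94% of 32851 upstream windows of this length in the RefSeq promoter table. A full cAMP response element (TGACGTCA, in 1.55% of windows), the octamer of POU factors (ATGCAAAT, in 1.60%), an EGR element (GCGNGGGCG, in 4.70%) and a STAT element (TTCNNNGAA, in 7.02%) were also searched on both strands. None of these 4 had a match in the Trh window. No measurement of binding or methylation accompanies these arrays, so the matches describe letters only.

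The Trh probe was among the brightest of the array in both EpiSC lines and of moderate brightness in ESC. Its scanner signal was 18810 ± 784 in E3 and 15675 ± 380 in T9, against 366 ± 16.8 for OG2 (arbitrary units, ± the standard error over the beads of that array, 1 array each). Both EpiSC signals lay far above the ESC signal, and the bead errors were 4.17%, 2.42% and 4.60% of the signal in that order. The mean of both EpiSC arrays was 17243 ± 2217 (SD, n = 2). A bead error covers the spread within an array only, and no repeat culture of any line was measured, so the spread between cultures is unknown. As the signal comes from bulk RNA, more cells with the transcript and more transcript per cell cannot be told apart.

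**Figure D1:**
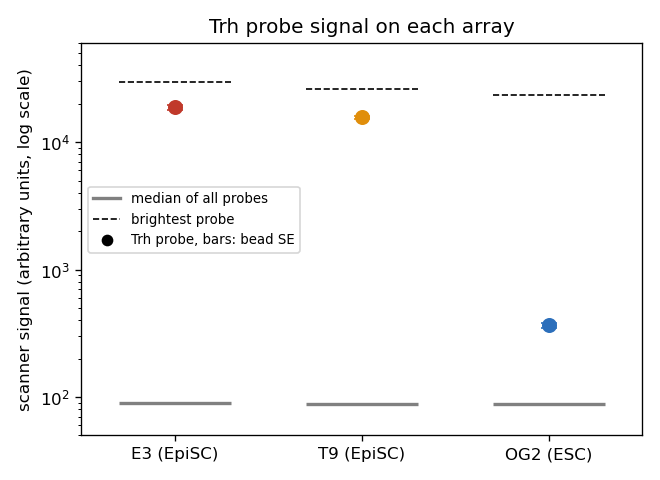
Scanner signal of the Trh probe (arbitrary units, log scale) on the arrays of the EpiSC lines E3 and T9 and the ESC line OG2, with bars for the bead standard error. The EpiSC points at 18810 and 15675 lie just under the brightest probe of their arrays (dashed line), and the ESC point at 366 lies above the median of all probes (grey line, 87.5).

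Ranked within each array, which needs no scaling between arrays, the Trh probe stood 28th of 25697 in E3 and 42nd in T9, but 3165th in OG2. Thus 0.105% of all probes were brighter than Trh on the E3 array, 0.160% on the T9 array and 12.3% on the OG2 array. Probes with a detection p under 0.01 on an array are called detected, and other probes are called not above background below. Among the detected probes Trh was 28th of 10791 (E3), 42nd of 11171 (T9) and 3165th of 10768 (OG2). Its place could not change, because every probe brighter than Trh was itself detected. In OG2 that left 29.4% of the detected probes brighter than Trh.

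**Figure D2:**
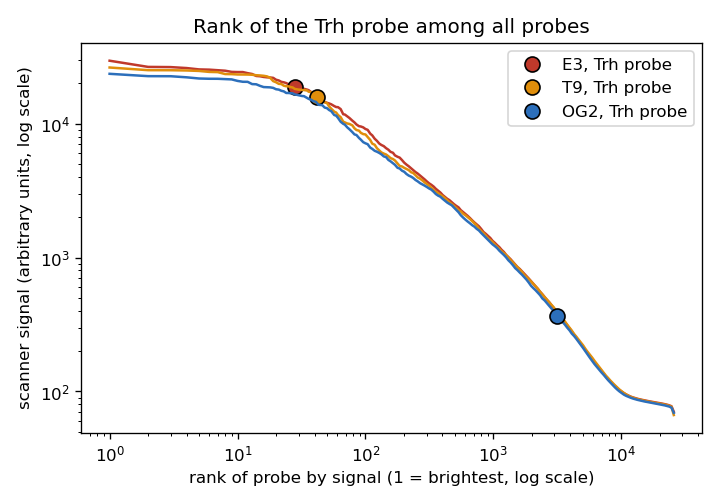
Scanner signal of the probes of each array against their rank (both axes on log scales, rank 1 being the brightest), with a circle for the Trh probe. The Trh probe sits near the top of the curve in E3 (rank 28) and T9 (rank 42) and further down the slope for OG2 (rank 3165).

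Trh was not absent from the ESC line. Its OG2 signal of 366 was 4.18 times the median of all probes on that array (87.5), and its detection p was listed as 0, in a table where this p moves in steps of 1 in 798. In E3 and T9 the signal was 211 and 177 times the array median. The ESC line therefore gave a measured level on the lower side, and the difference did not have to be stated as a bound.

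On the normalized log2 scale, Trh lay at 14.11 in E3 and 13.90 in T9 but at 8.30 in OG2. The EpiSC mean was 14.01 ± 0.15 (SD, n = 2), which is 5.71 above the single ESC array, or 52.2-fold. The difference was 5.81 for E3 (56.3-fold) and 5.60 for T9 (48.4-fold). Each line on its own put Trh at rank 3 of 8688 measured genes by its difference from OG2, and both differences share the OG2 array. E3 and OG2 are both of hybrid background, so the E3 difference is the one between lines labelled alike in this respect. The T9 difference includes the change from hybrid to 129 background.

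The size of the difference moved with the treatment of the background, through the ESC level. The plain ratio of scanner signals was 51.4 ± 3.19 for E3 over OG2 and 42.9 ± 2.23 for T9 over OG2 (± from the bead errors of both arrays). After background correction with no offset these ratios were 65.7 and 54.7. In the authors' processed table the Trh values were 16792 (E3), 14088 (T9) and 306 (OG2), with ratios of 54.8 and 46.0. The lowest of these ratios was thus 42.9, and it came from the signals with no background removed.

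Between the EpiSC lines Trh differed little. E3 was 1.20 ± 0.0579 times T9 in scanner signal, a difference of 3135 ± 871 units against the bead errors. After normalization the difference was 0.22 on the log2 scale (1.16-fold), while the log2 differences of all 12603 tested probes between these arrays had an SD of 0.532. Of the 8688 measured genes, 57.4% were further apart between E3 and T9 than Trh, and 5.79% were 2-fold or more apart. The order E3, T9, OG2 therefore has a clear step only before OG2. With 1 array per line, the order of E3 and T9 could not be tested.

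The labels of the lines were checked against marker genes. All 7 EpiSC markers were detected in both E3 and T9, and 4 of them in OG2 too. The others, Fgf5, Fgf8 and Cer1, were measured through EpiSC alone, so their direction was fixed. Of the 7, 3 rose in EpiSC by limma's test (Fgf5, Pou3f1 and Lefty1) and 4 did not pass, while 0.299% of all 8688 measured genes rose. By size, 5 of the 7 were 2-fold or more higher in both EpiSC lines, against 6.77% of all measured genes. Among those that did not pass, Otx2 was 14.7-fold higher, and Fgf8, not above background in OG2, at least 18.5-fold higher. E3 minus T9 was 1.19 for Otx2 and -2.09 for Fgf8 on the log2 scale. The growth factor gene Nodal lay at 9.24, 9.36 and 9.32 in the order E3, T9, OG2, with E3 below OG2. The growth factor gene Fgf5 lay at 8.59 (E3) and 8.38 (T9), while OG2 showed no signal above background. Of 8 ESC markers, 7 were measured and each was lower in both EpiSC lines, the nuclear receptor gene Esrrb at 5.46 and 6.46 against 12.54. Among them Tbx3 and Tcl1 were detected in OG2 only, so their direction was fixed. The ESC marker Nr0b1 was not detected on any array. Pou5f1, the POU factor shared by both states, lay at 12.65, 12.41 and 12.53 (normalized log2 level).

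Feeder and neural markers were examined because fibroblasts were present in the EpiSC cultures only and because Trh is known from hypothalamic neurons. Of 13 fibroblast markers with a probe, E3 showed 3, T9 showed 5 and OG2 showed 6 above background. Their summed background-corrected signal was 469 (E3), 807 (T9) and 3037 (OG2), and the muscle actin gene Acta2 made up 81.9% of it in OG2, 79.9% in T9 and 28.6% in E3. Without Acta2 the sum was 335 (E3), 163 (T9) and 549 (OG2). Lox was detected in OG2 only, whereas the surface protein gene Thy1 lay at 7.77, 5.74 and 5.20, highest in E3. The markers thus did not move together, and their part in the Trh result was not tested. The collagen genes Col1a2 and Col3a1, Postn, S100a4, Pdgfrb and Twist2 were not above background on any array. Of 11 neural and hypothalamic markers, E3 showed 4, T9 showed 3 and OG2 showed 3 above background, and their summed signal was 252, 357 and 112. That sum was higher in both EpiSC lines, as Trh was, and its part in the Trh result was not tested. Nes was the brightest of these markers on each array, with scanner signals of 227 (E3), 297 (T9) and 121 (OG2). Of the 5 measured, 4 lay above OG2 in both EpiSC lines. Among these, Syp and Sox3 were not above background in OG2 and were measured through EpiSC alone, which fixed their direction. Sox3 was detected in E3 only, so its T9 and OG2 levels were both not above background. Tubb3, detected in OG2 only, lay below, a direction fixed in the same way. The count is therefore no result about these markers. The transcription factor genes Sim1 and Otp, which mark TRH neurons of the mouse hypothalamus, the neural factor genes Sox1 and Pax6 and the neuronal genes Rbfox3 and Snap25 were not above background on any array. The intermediate filament gene Nes lay at 7.34 (E3), 7.82 (T9) and 5.84 (OG2) (limma adjusted p = 0.0938).

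Genes of TRH maturation, reception and control were then set beside Trh in 7 lists of 90 genes, and 27 of the 79 with a probe were measured, that is, detected on at least 1 array. This is 34.2% of them, against 52.4% of all genes with a probe. In limma's test of both EpiSC arrays against the ESC array, adjusted over 12603 probes, 1 of the 27 rose, 1 fell and 25 did not pass. Of all 8688 measured genes, 1.22% passed, with 0.299% higher and 0.921% lower in EpiSC. The median log2 difference of the 27 was -0.06, against 0.05 over all measured genes. By size, 3 were 2-fold or more higher in both EpiSC lines and 6 were 2-fold or more lower, against backgrounds of 6.77% and 7.07%. Of the lower genes, Qpct, Dio3, Rxra, Ncoa1 and Nppb were detected in OG2 only, and of the higher ones Pdyn in EpiSC only. They were measured only through the side where they are high, so their direction was fixed. With the other side at the lowest level among its detected probes, Ncoa1 (1.90-fold), Nppb (1.64-fold) and Pdyn (1.67-fold) do not reach 2-fold. These counts are therefore no result about the lists. Over all probes 36 rose and 109 fell, so that 24.8% of the calls were higher, against 37.2% with median scaling and 35.5% with cyclic loess.

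The gene that fell belongs to TRH maturation. Qpct, which encodes the glutaminyl cyclase that forms the ring at the start of the hormone, had a scanner signal of 87.8 in E3 and 83.6 in T9, with 223 in OG2. It was detected in ESC and not above background in either EpiSC line, the opposite side to Trh. The probe was tested only because ESC detected it, so its direction was fixed. Its measured means were 4.40 in EpiSC and 7.34 in ESC (normalized log2 level). This difference, 7.70-fold, is the one that limma called, and its spread comes from 2 EpiSC values not above background. As a bound, which limma did not test, Qpct was at least 5.73-fold lower in EpiSC after this background correction. That bound sets the EpiSC arrays to the lowest level among their detected probes and holds for this correction only. Without background correction the difference was 2.67-fold and the call was lost (adjusted p = 0.0523), as it was with an offset of 50 (3.56-fold, 0.0561), and adjusted p over the alternatives that kept the probe ran from 0.0244 to 0.160.

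The other maturation genes showed no call. The convertase gene Pcsk1 and the amidating enzyme gene Pam were not above background on any array. Furin, the convertase of the general secretory pathway, lay at 8.62 (E3), 9.14 (T9) and 8.16 (OG2) on its brightest probe. Pcsk1n, which encodes an inhibitor of the convertase made from Pcsk1, lay at 7.28, 6.49 and 5.34, with the EpiSC mean 1.55 ± 0.43 above ESC (limma SE, adjusted p = 0.155). Scg5, which encodes the chaperone of the convertase made from Pcsk2, was detected in T9 only. Pcsk2 and Cpe had no probe under these symbols.

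The TRH receptor genes Trhr and Trhr2 were not above background on any array, nor was Trhde, the gene of the surface peptidase that degrades TRH. Their scanner signals ran from 73.5 to 93.7. The intracellular peptidase genes Pgpep1 and Prep were detected on all 3 arrays. Prep lay at 8.98, 9.28 and 9.51 in the order E3, T9, OG2 (adjusted p = 0.469), and Pgpep1 at 7.06, 6.78 and 7.13 (adjusted p = 0.673). Gna11, a G protein subunit of the class to which the receptors couple, lay at 8.68, 8.61 and 8.71.

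Downstream of the hormone, the thyrotropin subunit genes Tshb and Cga, the thyrotropin receptor gene Tshr, the prolactin gene Prl, the thyroglobulin gene Tg and the thyroid factor genes Pax8 and Nkx2-1 were not above background on any array. Of 9 genes of this axis with a probe, Pomc (in T9 only) and the iodide transporter gene Slc5a5 (in E3 and T9) were detected, and neither passed the test.

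Genes of thyroid hormone sensing did not pass the test either. By size, 4 of 8 measured were 2-fold or more lower in both EpiSC lines, against 7.07% of all measured genes. Of these 4, only Hr was detected on all 3 arrays, and the others were measured through ESC alone. The count is therefore no result about the list. The receptor genes Thra and Thrb were not above background on any array. The gene of the enzyme that inactivates thyroid hormone, Dio3, had a scanner signal of 84.1 (E3), 88.4 (T9) and 127 (OG2) and was detected in ESC only (adjusted p = 0.0881). The receptor partner gene Rxra and the coactivator gene Ncoa1 were likewise detected in ESC only, which fixed their direction. At the lowest detected level Dio3 was at least 2.24-fold, Rxra at least 2.13-fold and Ncoa1 at least 1.90-fold lower in EpiSC, so Ncoa1 does not reach 2-fold at its bound. Hr, a corepressor gene known as a target of thyroid hormone in brain, lay at 5.30, 4.99 and 6.70 (adjusted p = 0.0926). Klf9, another such target, lay at 10.71, 9.27 and 11.48 (adjusted p = 0.277). The list had a median of -1.15 on the log2 scale, against 0.05 over all measured genes. Its middle genes, Rxra and Ncoa1, were not above background in EpiSC.

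Among 13 factors described at the Trh gene or in TRH neurons, 3 were measured and 1 rose. That was the immediate-early zinc finger gene Egr1, with scanner signals of 4497 (E3), 4587 (T9) and 97.1 (OG2), and a log2 difference of 7.03 ± 0.26 (limma SE, 130-fold, adjusted p = 0.0317). Its fold was 44.5 without background correction and 226 in the authors' processed table, where the call was lost (adjusted p = 0.160), as it was with all probes kept (0.105). Over all alternatives its adjusted p ran from 0.0141 to 0.160. Stat3, the factor that relays leptin and LIF signals, lay at 7.51, 7.30 and 8.46 on its brightest probe (adjusted p = 0.139), while a second probe gave 7.54, 7.98 and 7.72. Sp1 lay at 5.11 in E3 and 5.26 in OG2 and was not above background in T9. None of the 6 probes of Creb1 was above background. The leptin receptor gene Lepr, the melanocortin receptor gene Mc4r, Arnt2, Pou3f2, Nhlh2, Klf10 and Nr3c1 were not above background either.

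Most other peptide hormone genes examined gave no signal above background in these lines. Of 22 other precursor genes with a probe, 18 were not above background on any array, among them those of corticotropin-releasing hormone (Crh), growth hormone-releasing hormone (Ghrh), somatostatin (Sst), oxytocin (Oxt), vasopressin (Avp) and neuropeptide Y (Npy). Thus 18.2% of the 22 were measured, against 52.4% of all genes with a probe. The 4 detected were dim. The prodynorphin gene Pdyn had scanner signals of 118 and 113 in E3 and T9 and 84.0 in OG2, where it was not above background (adjusted p = 0.111). The galanin gene Gal was detected in T9 only and the natriuretic peptide gene Nppb in OG2 only. Nmb, the neuromedin B gene, lay at 5.13, 5.40 and 5.02. Of 8 genes of dense-core secretory granules, in which such peptides are stored, the granin genes Chgb, Scg2 and Scg3 were not above background on any array, Chga was detected in OG2 only, and Vgf lay at 5.44, 6.17 and 5.44.

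**Figure D3:**
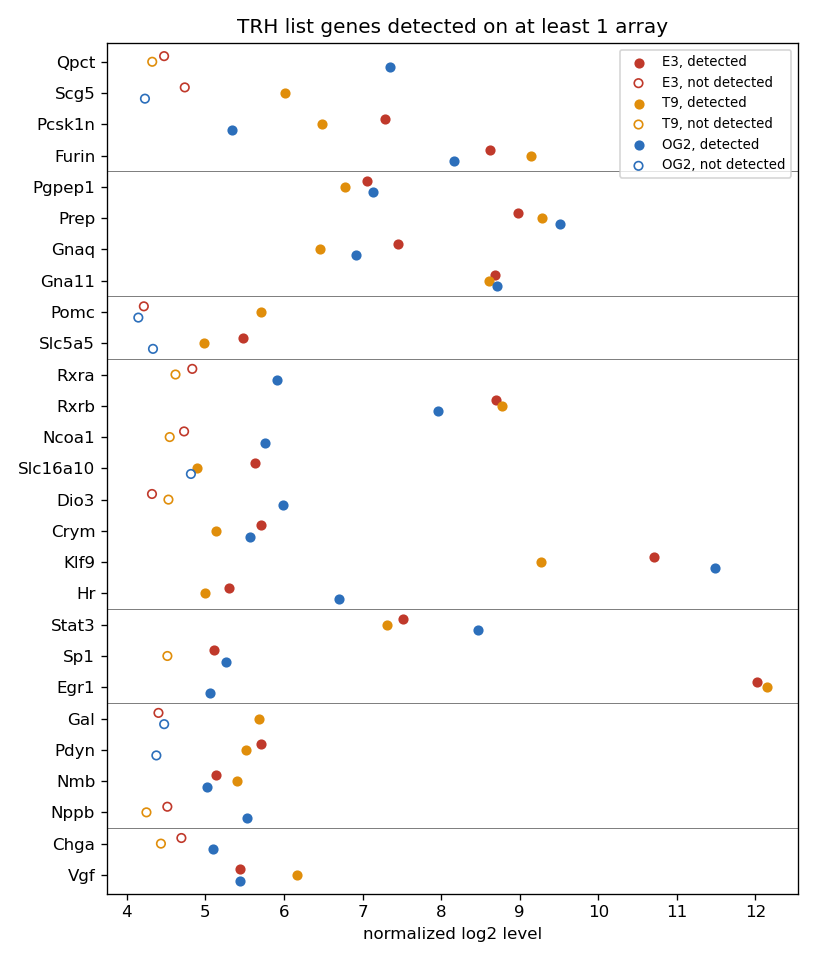
Normalized log2 level of the 27 measured genes of the TRH lists on each array, in the order maturation, reception and breakdown, pituitary-thyroid axis, thyroid hormone sensing, factors, other precursors and granules (grey lines between lists). Filled circles were detected and open circles were not; Egr1 is high in both EpiSC lines, and Qpct is detected in OG2 only.

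The genes with the pattern most like that of Trh were found by the distance between their pair of differences, E3 minus OG2 and T9 minus OG2, and that of Trh, over 3 arrays and 8687 genes. In this measure 2 genes lay within a distance of 1 and 8 within 2 (log2 units). The nearest was the carbohydrate sulfotransferase gene Chst1 at 0.57, with levels of 10.33 (E3), 9.36 (T9) and 4.27 (OG2). The membrane carbonic anhydrase gene Car14 followed at 0.85, with 10.04, 9.11 and 4.35. E3 exceeded T9 by 0.97 for Chst1 and 0.93 for Car14, against 0.22 for Trh.

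Next came the kinase gene Pim2 at a distance of 1.30 (8.95, 9.12 and 4.23), the gene Egln3 of a prolyl hydroxylase that acts on hypoxia-inducible factors at 1.34 (9.56, 8.83 and 4.40), the AP-1 subunit gene Fos at 1.73 (9.24, 10.34 and 5.11) and Egr1 at 1.88 (12.02, 12.14 and 5.06). Chst1, Car14, Pim2 and Egln3 were not above background in OG2, so their distances depend on where the background was set, while Fos, Egr1 and Trh were detected on all 3 arrays. With levels not above background raised to the lowest level among detected probes, a choice made after seeing the data, 0 genes lay within a distance of 1 and 7 within 2. Of the 6 genes above, 4 were then among the nearest 6, namely Chst1, Car14, Fos and Egr1, and Pim2 and Egln3 gave way to Aldoc and Cd59a. The other probes of Pim2 gave smaller differences, 2.59 and 2.44 for E3 and 2.58 and 2.71 for T9. The second probe of Egln3 gave 0.64 and 0.23.

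**Figure D4:**
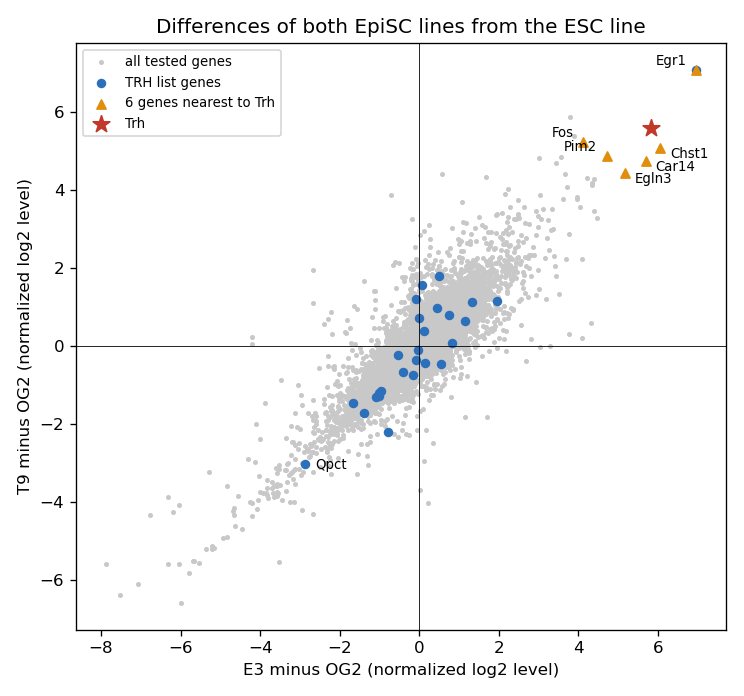
Difference of each EpiSC line from OG2 (normalized log2 level, E3 on the horizontal and T9 on the vertical axis) for 8688 measured genes (grey), the genes of the TRH lists (blue), the 6 genes nearest to Trh (triangles) and Trh (star, 5.81 and 5.60). Both axes share the OG2 array, so points follow the diagonal in part for that reason.

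The genes that neighbour Trh on its chromosome in GRCm38.p6 were added after the other values had been seen, as the 3 nearest protein-coding genes on each side. No neighbour passed the test. Rbsn and Mrps25, on one side, lay 0.52 ± 0.25 and 0.43 ± 0.25 above ESC in EpiSC (limma SE, adjusted p = 0.303 and 0.370). Nr2c2, beyond them, and Prickle2, on the other side, were not above background on any array. Magi1 lay 0.38 ± 0.26 above ESC (adjusted p = 0.437) and was not above background in OG2, and Adamts9 had no probe under this symbol.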

How the data were processed

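Total RNA (400 ng, 12 h of in vitro transcription, per the labels' protocols) was hybridised to 1 array per line. Groups came from the sample titles. The authors deposited, per the file headers, a linear signal intensity per probe, its bead standard error and a detection p-value. The deposited intensity values had neither background subtraction nor normalization between arrays. BeadStudio was used, per the submitters' processing notes. The authors' processed intensity table ranked the detected probes as the scanner tables did. How it was normalized is not stated in the sources available, and it served as an alternative with blanks set to its lowest value.

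Of 25697 probes, 23978 had 1 gene symbol and 1719 none. Symbols were checked through RefSeq gene identifiers (0 changed). The upstream sequence came from RefSeq (GRCm38.p6). With limma 3.58.1 in R 4.3.3, signals were corrected with nec (offset 16, background inferred from the detection p), taken to log2 and quantile normalized. The offset understates folds of dim genes. Probes passing a detection p of 0.01 on any array were tested with lmFit and eBayes (two-sided, Benjamini-Hochberg, threshold 0.05), and the brightest tested probe stood for a gene. The spread comes from 2 EpiSC lines alone, and the number of arrays limits the precision. The gene, the lists and the tests were chosen with earlier results of these data known. Genes named were Trh, list members, the 6 nearest in pattern and the neighbours. On simulated arrays of 12603 probes for EpiSC against ESC, 50 probes were changed at each size. Log2 changes of 1, 2, 4 and 6 were recovered for 0%, 12%, 98% and 100%, with 11 false calls. The simulated noise was drawn from the E3 minus T9 differences of all probes, whatever their level, and was given to the ESC array too. The simulation therefore cannot show the effect of the real ESC spread or of dim signals.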

Additional observations from a re-analysis of the deposited data

How the results depend on the processing

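The Trh difference between EpiSC and ESC kept its direction under every alternative run. It was 5.71 on the log2 scale, 5.44 (43.4-fold) without background correction, 5.56 with an offset of 50, 5.82 with median scaling, 5.63 with cyclic loess and 5.65 in the authors' processed table. With either EpiSC line left out it ran from 5.60 to 5.81. The difference between E3 and T9 ran from 0.16 to 0.27, always with E3 higher. By its EpiSC mean minus ESC, Trh stood at rank 2 of 8688 genes with the scanner signals under each background and scaling setting above and at rank 8 in the authors' processed table. The ranks by signal among detected probes are no check, because every probe brighter than Trh was itself detected.

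The number of probes past the threshold, 145, became 296 with median scaling, 344 with cyclic loess and 93 among probes detected on all 3 arrays. It was 0 with limma in the authors' processed table (2899 at an unadjusted p under 0.05) and 0 with all probes kept (4462). The 2 called genes of the TRH lists, Egr1 and Qpct, were both called with median scaling and cyclic loess. Only Egr1, 1 gene, was called without background correction, with an offset of 50 and among probes detected on all 3 arrays, where Qpct was not tested. Neither was called (0 genes) in the authors' processed table (10 list genes at an unadjusted p under 0.05) or with all probes kept (15). The causes were not tested. Of the 6 genes nearest to Trh, 6 were found again with median scaling, 5 with cyclic loess and 4 with levels not above background raised to the lowest detected level.

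Counts of calls could not be had with an EpiSC line left out, as no residual degrees of freedom remain. No paired analysis was possible because the labels give no replicate numbers and ESC has 1 array. Signals near the array median cannot be told from background, which limits dim genes. Trh was detected on each array, but the size of its difference moved with the treatment of the background through the ESC level.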
